A study of Homo sapiens with 3 samples.

Results

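The sites described here are HDAC1 summits of moderate score in untreated HepG2 cells whose partner in H89-treated cells scored high. A site was a pair of mutually nearest control and H89 summits within 1000 bp, and it was taken when the control score was below 8 and the H89 score 10 or more. There were 291 such sites among 8189 pairs, which were formed from 9476 control and 11553 H89 summits. The sites were selected on both scores, so the scores below describe them and were not tested. The labels moderate and strong refer to the score alone, a −log10 p-value for each summit, and not to a measured occupancy.

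HDAC1 is a class I histone deacetylase that works in the Sin3, NuRD and CoREST complexes, where it removes acetyl groups from histone tails near promoters and enhancers. H89 is a small molecule that competes with ATP at the cAMP-dependent protein kinase PKA and is known to inhibit several other kinases too. In hepatocytes, PKA carries the glucagon signal to the genes of the fasting response, through the factor CREB and its coactivators. The study asked how the positions of HDAC1 differ with and without H89. It used CUT&Tag, in which an antibody guides a tagging transposase to its target protein on chromatin.

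The cells were HepG2, an established line from a human liver carcinoma, with the genotype labelled WT in all groups. One group had no H89 and another had H89, each with 1 library. The remaining library used IgG, an antibody without a chromatin target, on cells without H89 and was not analysed here. For H89, the dose and duration are not stated in the labels, HDAC1 is named in the series title alone, and PKA activity has no values here. Read totals are unknown. With 1 library per condition no difference has a replicate check, and library depth, tagmentation efficiency and H89 cannot be told apart. Each share is followed by its exact 95% interval (Clopper-Pearson), which covers counting error only. Positions are 1-based on hg19, and with no hg19 gene annotation at hand the sites are given by chromosome band and not by gene.

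The median site scored 6.76 in the control and 12.3 with H89. Control scores ran from 2.84 to 7.999 with a median of 6.76, and H89 scores from 10.1 to 19.4 with a median of 12.3. The difference between the scores ranged from 2.20 to 13.9, with a median of 4.60 against 0.20 over all 8189 pairs. The commonest combination, 7.67 in the control and 12.3 with H89, was found at 67 sites. The next, 6.70 and 10.8, was found at 32 sites, and 5.50 and 12.3 at 20 sites. An H89 score of 15 or more was reached at 15 sites. In the control list the median site was already above the middle, outscoring 80.2% of control summits, while the lowest site outscored 11.2%. In the H89 list the median site outscored 92.3%.

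The share of pairs that met the H89 limit was larger at higher control scores. Such scores lie nearer to that limit and need a smaller rise to meet it, so the rule itself favours this order. Among all 7022 pairs with a control score below 8, the 291 sites made up 4.14% (interval 3.69 to 4.64). The share was 20.1% (17.1 to 23.4) among pairs with a control score from 7 up to 8 and 17.7% (14.4 to 21.5) from 6 up to 7. It was 2.97% (2.18 to 3.94) from 5 up to 6, 1.92% (1.14 to 3.02) from 4 up to 5 and 0.352% (0.182 to 0.614) below 4. Of all 1129 paired H89 summits with a score of 10 or more (13.8% of the 8189 pairs), 541 already scored 10 or more in the control, 297 scored from 8 up to 10, and 291 (25.8%, interval 23.2 to 28.4) were the sites described here.

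Few pairs showed the opposite pattern under the same limits. A control score of 10 or more with an H89 score below 8 was found at 15 pairs, which is 0.239% (0.134 to 0.394) of the 6275 pairs with an H89 score below 8. The H89 list held more high scores as a whole, with 1143 summits at 10 or more against 615 in the control. The H89 limits were then set by rank, at the score as far from the top of its list as in the control list. This moved 10 to 12.9 and 8 to 9.92, and 57 pairs met the rule and 37 its opposite. At least 355 pairs tied at the H89 score of 9.92 and were not counted as below it. Of these 355, 28 scored 12.3 in the control, 1 scored 14.7 and 2 scored higher. Counting ties as below would add them to the opposite pattern. The excess of 291 over 15 thus shrank to 57 over 37 under these limits, and the direction of what remained depends on how ties are counted. The part of depth in the higher scores was not tested.

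**Figure D1:**
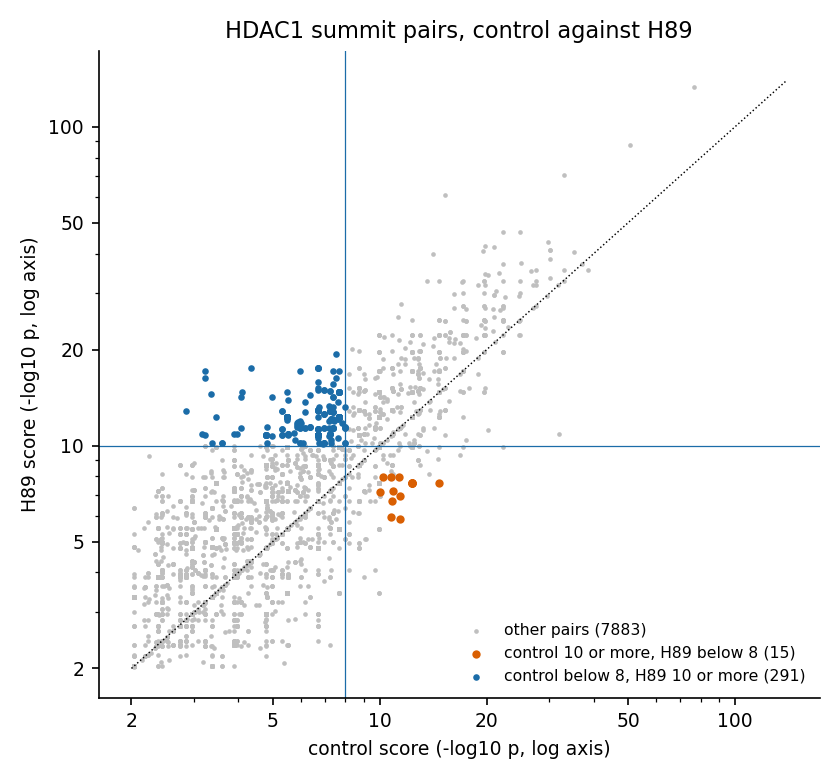
Control score against H89 score (both −log10 p, log axes) for 8189 HDAC1 summit pairs. The 291 sites with a control score below 8 and an H89 score of 10 or more (blue) lie above and left of the limits drawn as lines, the 15 pairs of the opposite pattern (orange) lie below the dotted line of equal scores, and other pairs are grey.

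The scores could be read as small counts over a background. Nearly all of them (99.9% in both lists) equalled −log10 of the Poisson probability of m or more counts at some background mean. The means were taken from a series, and m is called the step here. The series held a floor mean of 0.0269 in the control and 0.0271 with H89, multiples of a local unit (0.0473 in the control, 0.0477 with H89) in increments of 0.5 units, and whole numbers from 1 upward. The unit was 1.76 times the floor in both lists. Steps lay close enough together that 1.46% of the score range from 2 to 8 would match some step by position alone, and 9.79% (control) and 9.89% (H89) of the range from 10 to 20. A step of m is reached with m counts if the tail includes the count itself and with 1 fewer if it does not, and the sources used here do not say which of these holds.

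Read this way, the typical site differed by 2 or 3 counts. Both scores could be read at 288 of the 291 sites. The others were in 7q21.3 (5.47 and 12.1), in 16q24.3 (7.41 and 11.96) and on a separate chromosome 17 contig (6.34 and 14.4). At 247 of the 288 (85.8%) the background was the same in both lists, as it was at 90.2% of all pairs. At these 247 sites the median step was 4 in the control and 6 with H89. The step was 2 higher with H89 at 113 sites, 3 higher at 88, 4 higher at 26, 5 higher at 12, and 6 to 9 higher at 8. Over all 7380 pairs with the same background, the step was at least 2 higher with H89 in 17.9% and at least 2 lower in 1.21%, so a gain of 2 steps was not confined to the sites chosen here. The steps of the 247 sites summed to 1256 in the control and 1970 with H89, 1.57 times as many (1.71 times with 1 taken from each step), against 1.17 times (1.22 times) over all pairs with the same background. The limits themselves select a high ratio.

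Counts this small leave wide intervals. For 4 against 6, the commonest combination with 99 sites, the ratio was 1.5 with an exact interval from 0.356 to 7.23, treating the steps as independent counts of fragments. Over all 7380 pairs with the same background, such an interval lay above 1 at 2 (0.0271%), and with 1 taken from each step at 3 (0.0407%). Since hardly any pair could reach it at these steps, and the steps come from the scores that chose the sites, the interval was not used to judge single sites.

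**Figure D2:**
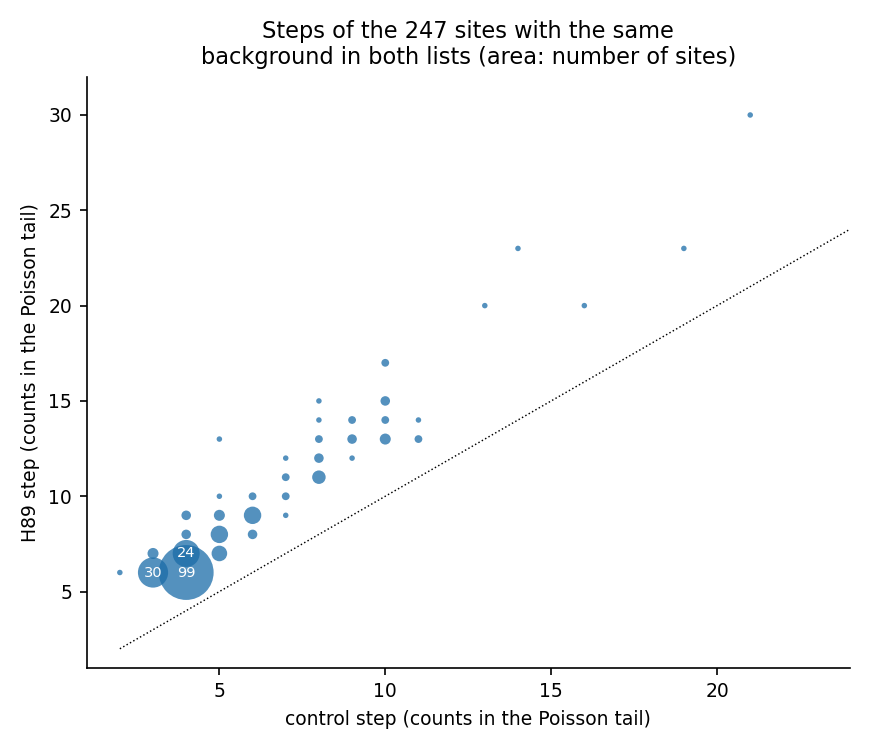
Control step against H89 step for the 247 sites with the same background in both lists, with the area of each point proportional to the number of sites, printed where it is 20 or more. The largest point is 99 sites at step 4 in the control and step 6 with H89, and each point lies above the dotted line of equal steps, as the limits require.

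The sites are the upper tail of a broad spread. On the floor background, 491 pairs stood at step 4 in the control (score 7.67), and with H89 105 of them stood lower, 167 at the same step, 140 at 1 step higher, and 79 at least 2 steps higher. These 79 (16.1%, interval 12.95 to 19.6) are the sites from that step. Starting instead from the 591 pairs at step 4 with H89, 6 (1.02%, 0.373 to 2.20) stood at least 2 steps higher in the control. On a background of 1 unit, 44 of 256 pairs at step 4 in the control (17.2%, 12.8 to 22.4) stood at least 2 steps higher with H89, and 1 of 286 the other way round (0.350%, 0.00885 to 1.93). The share at least 2 steps higher with H89 was close to these values, or larger, at control steps above the limit. It was 21.5% at floor step 5 and 25.9% at floor step 6. The steps come from the scores that chose the sites, and the H89 list held more high scores as a whole. These shares are therefore a description, and the part of depth in them was not tested.

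**Figure D3:**
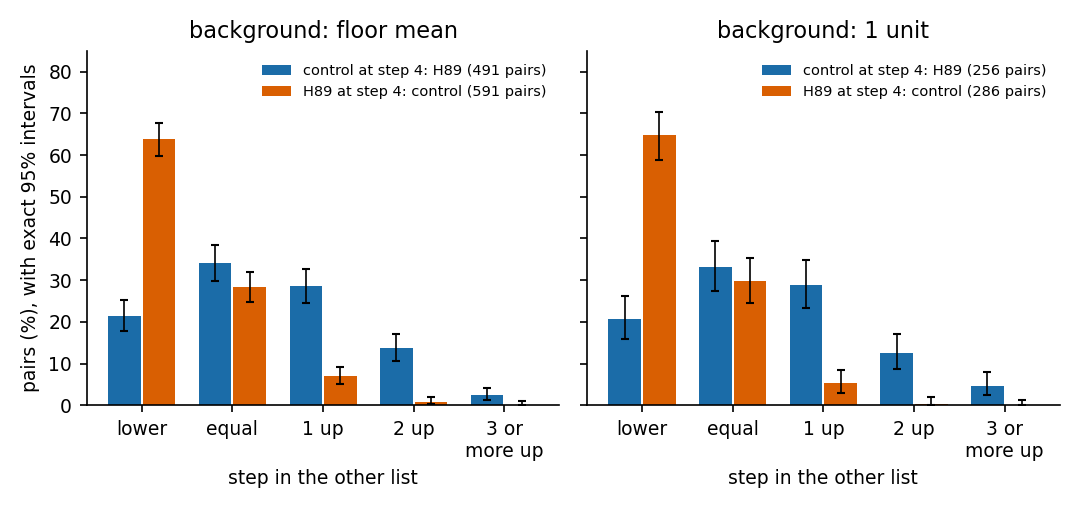
Where pairs at step 4 of one list stood in the other list, in percent of those pairs with exact 95% intervals, on the floor background (left) and on a background of 1 unit (right). Of the pairs at step 4 in the control (blue), 16.1% (left) and 17.2% (right) stood at least 2 steps higher with H89. Of the pairs at step 4 with H89 (orange), 1.02% and 0.350% stood at least 2 steps higher in the control. The steps come from the scores that chose the sites, and the H89 list held more high scores as a whole.

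At 41 sites the background read from the scores differed between the lists, and there the score mixes steps and background. The background was lower with H89 at 33 of them and higher at 8, a direction that the limits favour, since a lower background with H89 raises the H89 score. Over all 802 pairs whose background differed, it was lower with H89 at 351 and higher at 449. The step was higher with H89 at 37 of the 41 and equal at 4. Scored at the control background, the H89 steps of 21 of the 41 gave a score below 10, so these 21 met the limit through the lower background. The summits of these 41 lay a median of 61 bp apart, against 32 bp at the 247 sites with the same background. The site in band 6p21.1 on chromosome 6 is an example, with its control summit at 41487888 (score 3.23) and its H89 summit at 41487492 (score 10.8). It stood at step 6 in both lists, with a background of 1 in the control and 0.0477 with H89.

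The highest H89 score of the group, 19.4, lay in band 6q25.3 on chromosome 6. Its summit was at position 160183237 in the control, where it scored 7.53, and at 160183220 with H89. The steps were 14 and 23, and the background was 2 in the control and 1.43 with H89. At the control background the H89 step would score 16.3, so this site met the limit without the lower background.

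A pair of sites reached an H89 score of 17.5 from unequal starts. In 1p34.1 on chromosome 1, the control summit at 45140065 scored 6.68 (step 13) and the H89 summit at 45140034 stood at step 19. In 20q11.22 on chromosome 20, the control summit at 33464057 scored 4.33 (step 10) and the H89 summit at 33464117 stood at step 19 too. At both, the background was 2 in the control and 1 with H89, and step 19 at a background of 2 would score 12.2.

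A trio of sites shared the values 6.70 in the control and 17.5 with H89, from steps 4 and 9 on a background of 1 unit in both lists. One lay in 6p21.2 on chromosome 6 (control summit 37070275, H89 summit 37070520). Another lay in 7p22.1 on chromosome 7 (7222672 and 7222660). The last lay in Xp22.13 on chromosome X (17755360 and 17755350). At all 3, the difference of 10.8 in score thus stood for 5 steps.

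The remaining sites among the 10 highest H89 scores scored 17.1 or 17.2. The site in 4q34.3 on chromosome 4, a band that stains dark and is poor in genes, went from 7.67 at 182162048 to 17.2 at 182162076, from step 4 to step 8 on the floor background. The site in 19p13.2 on chromosome 19, the band of the LDL receptor gene, went from 7.39 at 10828469 to 17.1 at 10828477, from step 8 to step 15 at a background of 10 units. In 7q22.1 on chromosome 7, the control summit at 99601560 scored 5.95 (step 9) and the H89 summit at 99601585 scored 17.1 (step 15). The 21q22.3 site of chromosome 21 scored 3.23 at 47648934 in the control (step 6) and 17.1 at 47648873 with H89 (step 15), the largest score difference of the group at 13.9. At both of these the background was 1 in the control and 0.477 with H89, and at the control background step 15 would score 12.5.

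**Figure D4:**
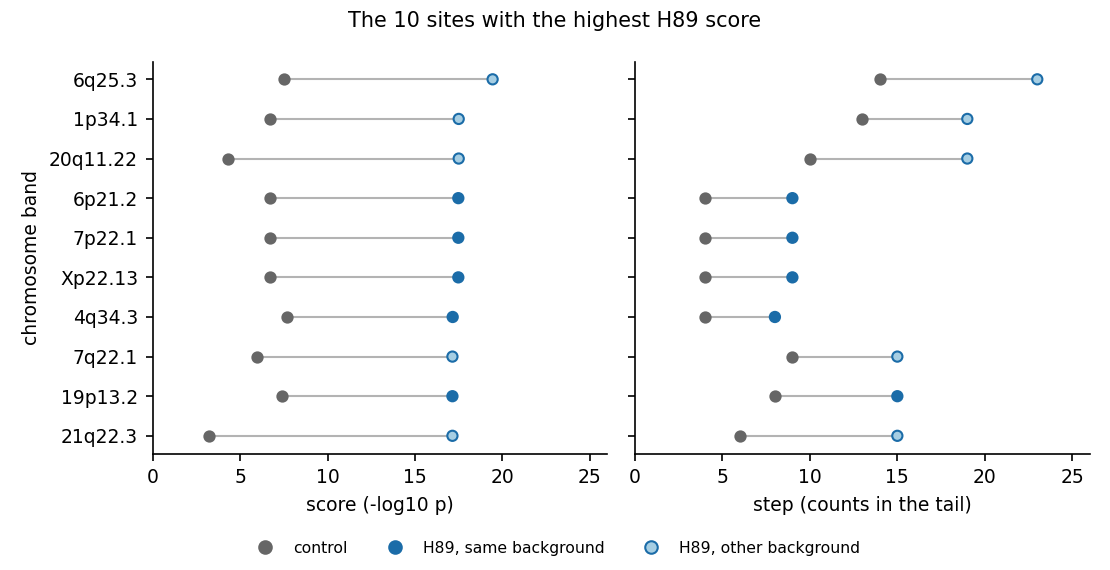
Control (grey) and H89 (blue) values of the 10 sites with the highest H89 score, by chromosome band, as scores (left, −log10 p) and as steps (right). Filled blue points share a background between the lists and pale ones do not. The scores reach 17.1 to 19.4 with H89 at all 10, while the H89 steps range from 8 to 23.

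Among the 10 largest score differences, those not yet described combined a higher step with a lower background, unlike the trio above on 1 unit in both lists. In 19q13.42 on chromosome 19, the control summit at 54975398 scored 3.23 (step 6, background 1) and the H89 summit at 54975266 scored 16.3 (step 12, background 0.238). In 14q11.2 on chromosome 14, the control summit at 23771255 scored 3.35 (step 6, background 0.946) and the H89 summit at 23771006 scored 14.5 (step 11, background 0.238). At the control background these H89 steps would score 9.08 and 8.24, below the limit of 10.

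Of the 5 lowest control scores in the group, 2.84 to 3.23, all were at sites whose background differed between the lists. The lowest lay in 10q24.32 on chromosome 10, at 104180771 in the control (score 2.84, step 4, background 0.473) and 104181007 with H89 (score 12.8, step 8, background 0.0953). In 17q21.1 on chromosome 17, the control summit at 38109340 scored 3.16 (step 14, background 5) and the H89 summit at 38109288 scored 10.9 (step 19, background 2.38). The others are the sites in 6p21.1, 19q13.42 and 21q22.3 given above.

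The pairs nearest to each limit were as follows. Just inside the control limit were sites in 2p21 (43390275) and 17p13.1 (7747254), each with 7.999 in the control and 11.4 with H89, and one on a chromosome 6 haplotype contig with 7.999 and 13.2. Just outside were 2q14.2 (121223773) with 8.18 and 15.2, 11q23.3 (116708477) with 8.18 and 12.9, and 17q25.1 (73512392) with 8.18 and 16.8. Just inside the H89 limit were 2p13.3 (70141905) with 6.91 in the control and 10.1 with H89, 2q11.2 (99757819) with 6.07 and 10.2, and 2q13 (113403176) with 5.95 and 10.2. Just outside were 12p13.31 (6982687) with 4.60 and 9.98, 2q21.3 (136288630) with 3.23 and 9.97, and 2q31.2 (178129648) with 3.88 and 9.97. Step 5 of the floor background with H89 scores 9.92, and 246 pairs with a control score below 8 stood there. A limit of 9 in place of 10 gave 637 sites.

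The sites were spread over the genome. All 24 primary chromosomes held at least 1 of the 270 sites that lay on them, in 191 chromosome bands, 141 of which held a single site. Neighbouring sites on a chromosome were a median of 4.16 Mb apart. Chromosome 1 held 28 sites, chromosome 2 held 27, and chromosomes 17 and 19 held 22 each. As a share of the pairs with a control score below 8, the 19 chromosomes with at least 100 such pairs ranged from 1.72% on chromosome 11 (6 of 349, interval 0.633 to 3.70) to 5.99% on chromosome 8 (13 of 217, interval 3.23 to 10.03). Chromosome 11 was the only one of the 19 whose interval left out 4.14%, while those of chromosome 20 (5.35%), chromosome 2 (4.97%) and chromosome 16 (4.74%) included it.

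The most sites in a band, 6, lay in gene-rich 19p13.3 at the end of the short arm of chromosome 19, among 102 pairs with a control score below 8 (5.88%, interval 2.19 to 12.4). The site at 198766 went from 5.84 to 11.6, from step 21 to step 30 at a background of 6. The site at 5828133 went from 3.45 to 12.3, from step 2 to step 6 on the floor background, the lowest control step of the group. The site at 1864320 went from 5.51 to 13.9 (steps 4 and 9), and the one at 1205444 from 6.70 to 12.97 (steps 4 and 7). The site at 3762820 went from 7.39 to 11.3 (steps 8 and 11), and the one at 1028455 from 6.70 to 10.8 (steps 4 and 6). The 6 sites thus shared neither their scores nor their backgrounds, apart from 2 that started from 6.70.

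Band 8q24.3, at the tip of the long arm of chromosome 8, held 5 sites among 43 pairs (11.6%, interval 3.89 to 25.1). The site at 143464741 went from 7.67 to 14.7 (steps 4 and 7), the one at 141474677 from 7.27 to 12.1 (steps 6 and 9), and both summits of the latter fell on the same base. The sites at 144619682, 145733780 and 146127678 all scored 10.8 with H89, from 6.70, 5.51 and 4.77 in the control. Of the 44 pairs in this band, 1 scored 10 or more in both lists, against 12 of 121 in 19p13.3. Bands 2q37.3, 16p13.3, 16q22.1, 17q25.3 and 19p13.2 held 4 sites each, and 12 bands held 3 each, the first in genome order being 1q22, 2p25.1 and 2q11.2. For the 7 bands with 4 sites or more, and for 11 of the 12 with 3, the interval of the share included 4.14%. The exception was 6p22.3 on chromosome 6, with 3 of 9 pairs (33.3%, interval 7.49 to 70.1). Of all 709 bands with a pair below 8 in the control, 4 had an interval above 4.14%, the others being 6p23 (2 of 4 pairs), 10p15.3 (2 of 6) and 10q23.2 (2 of 6), all of which rest on few pairs and were singled out after their values were seen.

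Of the 291 sites, 20 stood in close groups. In 10 places 2 sites lay less than 50 kb apart, and no place held more than 2. Other pairs within 50 kb of a site, of any score, numbered 358. The closest were in 6p22.3 on chromosome 6, 1.77 kb apart, where the summit at 20401872 went from 4.08 to 11.3 and the one at 20403644 from 6.70 to 12.97. In 2q37.3 on chromosome 2, 2.17 kb apart, the summit at 242950393 went from 4.09 to 14.7 (steps 5 and 13 at a background of 9 units) and the one at 242952565 from 5.50 to 14.7 (steps 3 and 7 on the floor). In 16p13.2 on chromosome 16, 5.08 kb apart, the summit at 8957671 went from 7.29 to 10.2 and the one at 8962746 from 7.39 to 15.6. In 10p15.3 on chromosome 10, 7.72 kb apart, the summit at 1095125 went from 6.95 to 11.3 and the one at 1102849 from 5.50 to 12.3. In 1p35.1 on chromosome 1, 43.3 kb apart, the summits at 32816997 and 32860248 both went from 7.23 to 12.8 (steps 5 and 8 at a background of 2 units). The 5 groups not described, in 16q22.1, 17p13.3, 17q25.1, 19q13.42 and 20p13, spanned 5.73 to 44.4 kb.

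Several sites lay on sequence that hg19 holds in more than 1 copy. The MHC, the region of the antigen-presenting HLA genes, stands in hg19 on chromosome 6 and on 7 further contigs with other haplotypes. Of the sites, 19 lay on these contigs, among 178 pairs with a control score below 8 (10.7%, beside 4.14% over all pairs). The contigs are copies of one region and their pairs are not independent, so the share has no interval here. On chromosome 6 itself, 6p21.33 together with 6p21.32, which cover part of that region, held 2 of 33. The same combination of scores, 7.67 and 12.3, stood 6 times on 4 of the contigs, and 6.70 and 10.8 stood 4 times on 4 contigs. The sites on chromosome 6 went from 6.70 to 10.8 at 31830714 and from 7.64 to 13.7 at 32936459. On the sex chromosomes, a site at 1511226 of chromosome X and one at 1461226 of chromosome Y lay exactly 50000 bp apart in both lists and had the same scores, 7.67 and 12.3. Chromosomes X and Y share their sequence at that end, so these 2 are not independent sites either. Without the haplotype and other separate contigs 270 sites remained.

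Both summits of a site lay close together, within the 1000 bp that pairing allowed in every group. The median offset was 38 bp (quartiles 15 and 80.5), against 53 bp over all pairs and 31 bp over the 541 pairs with both scores at 10 or more. Within 100 bp lay 83.5% (78.7 to 87.6) of the sites and 70.8% (69.8 to 71.8) of all pairs. Pairs that started from a similar control score, from 6 up to 8, but stayed below 10 with H89 were at 81.0% (78.3 to 83.5), beside 86.0% (80.7 to 90.4) for the 215 sites with such a control score. The H89 summit lay at the higher coordinate in 52.8% (46.8 to 58.7) of the sites with an offset, an interval that includes 50%.

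The surroundings of the sites had shares near those of all pairs. Another control summit stood within 5 kb of 24.1% (19.3 to 29.4) of the sites, 19.9% (19.1 to 20.8) of all pairs and 18.8% (16.3 to 21.5) of the pairs that started between 6 and 8 and stayed below 10. For pairs with both scores at 10 or more this share was 17.2% (14.1 to 20.6), an interval that overlaps that of the sites. An H89 summit without a control partner stood within 50 kb of 35.7% (30.2 to 41.5) of the sites and 33.7% (32.7 to 34.8) of all pairs, and a control summit without an H89 partner within 50 kb of 15.1% (11.2 to 19.8) and 15.9% (15.1 to 16.7). Giemsa-negative bands, which stain pale and are known to be gene-rich, held 66.7% (60.7 to 72.3) of the sites on primary chromosomes and 65.0% (64.0 to 66.1) of all pairs there. The darkest bands held 4 sites (1.48%, 0.405 to 3.75) and 3.75% (3.34 to 4.19) of all pairs.

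Pairs near the sites scored higher with H89 in a slightly larger share than pairs farther away, with overlapping intervals. Over all 8189 pairs, 50.2% scored higher with H89 by more than 0.1, a share that includes the sites themselves, whereas the shares below leave them out. Of the 646 other pairs within 100 kb of a site, 52.2% (48.2 to 56.1) did so, against 48.1% (46.9 to 49.2) of the 7252 farther away. Within 50 kb the share was 51.7% (46.4 to 57.0) of 358 pairs, and within 10 kb 52.4% (42.4 to 62.4) of 103. The median control score was 4.08 for the pairs within 100 kb and 4.77 for those farther away. The intervals within 10 and 50 kb included the shares farther away, 48.3% and 48.2%. The interval within 100 kb began at 48.2%, just above the 48.1% farther away.

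**Figure D5:**
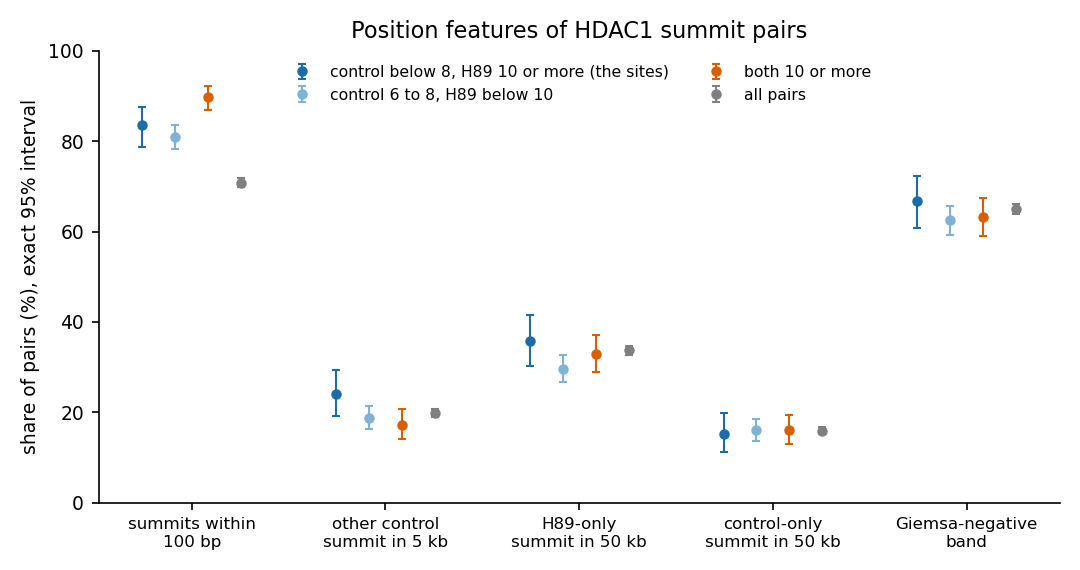
Share of HDAC1 summit pairs (percent, exact 95% intervals) with each of 5 position features, for the 291 sites (270 for the bands), pairs with a control score from 6 up to 8 and an H89 score below 10, pairs with both scores at 10 or more, and all pairs. For summits within 100 bp of each other the sites stand at 83.5%, above all pairs at 70.8%. Pairs from 6 up to 8 that stayed below 10 stand at 81.0%, and pairs with both scores at 10 or more at 89.8%. For the remaining features the intervals of the sites overlap those of the other groups. Another control summit within 5 kb stands at 24.1% of the sites and 17.2% of pairs with both scores at 10 or more.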

How the data were processed

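CUT&Tag libraries of HepG2 cells without and with H89 were used, 1 of each. Bowtie 0.12.2 and hg19 are named in the submitters' processing notes. Which program called peaks, against what control and at which threshold, is not given in the sources used here. The authors deposited a list of 1-bp summits per library, each with a score, read here from the values as a −log10 p-value without adjustment. Peak names matched each list to its sample title. Read depth is unknown.

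Summits were paired as mutually nearest within 1000 bp. Each score was compared with −log10 Poisson tail probabilities, with a tolerance of 2.5 units of the last of its 6 digits. A score that matched several ways took the commonest background of its list. Functions were tested on simulated data. Bands came from circlize 0.4.16 (R 4.3.3). Python 3.11.15, numpy 2.4.6, pandas 2.3.3 and scipy 1.17.1 were used. Planned assignment to genes was not run, for lack of an hg19 annotation. The sites and limits were chosen with earlier results of these data known. Sites named are the 10 highest H89 scores, the 10 largest differences, the 5 lowest control scores, the first 5 groups under 50 kb and the first 10 bands by number of sites (ties by genome order), and 3 pairs on each side of each limit. Alternatives were other distances, limits and chromosomes, and rank-matched limits.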

Additional observations from a re-analysis of the deposited data

How the results depend on the processing

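The number of sites moved with the score limits. It was 159 with a control limit of 7, 637 with an H89 limit of 9, 168 with an H89 limit of 12 and 57 with rank-matched limits, and under the other 8 alternatives it lay between 247 and 386. All 57 were among the 291. The opposite pattern, 15 pairs, numbered 4 and 26 with its low limit at 7 and 9, 82 and 6 with its high limit at 9 and 12, and 37 with rank-matched limits. The 37 leaves out pairs tied at the H89 limit of 9.92, and counting those as below would raise it. Scoring the H89 step at the control background, an alternative chosen after seeing the data, gave 288 sites and 13 pairs of the opposite pattern, and 267 of the 288 were among the 291. Keeping pairs with the same background, also chosen after seeing the data, gave 247 and 10. The share of sites with another control summit was 33.0% within 10 kb and 63.2% within 50 kb, larger by construction. The median offset (32 to 38.5 bp) and the share in Giemsa-negative bands (62.2% to 71.6%) stayed within their main intervals under all 9 and 8 alternatives run. No paired analysis was possible because each condition has 1 library. Scores rest on few counts and depth is unknown, which limits every value for a single site.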

Other observations

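Chromosome Y carried few summits, and some of them stood exactly 50000 bp below a chromosome X summit, as positions of the shared end of the 2 chromosomes do in hg19. In the control list this held for 4 of 35 Y summits, and 2 of the 4 had the same score as their X partner. In the H89 list it held for 5 of 48, and 4 of the 5 had the same score.

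The 15 pairs of the opposite pattern were also scattered. The highest control score among them was 14.7, in 7p22.3 on chromosome 7 at 579368, where the H89 summit at 579324 scored 7.66 (steps 7 and 4). A combination of 12.3 in the control and 7.66 with H89, steps 6 and 4 on the floor background, stood in 1q42.3, 2p24.1, 8p23.3, 16p13.3 and 19q13.42. In 2p23.3 both summits fell on base 25016112 of chromosome 2, where the score was 11.4 in the control and 5.86 with H89. The step was 11 in the control and 12 with H89, and the background read from the score was 0.473 and 2.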
